A study of Mus musculus with 34 samples.

Results

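The promoters of 8 genes of cholesterol synthesis and uptake (Srebf2, Insig1, Hmgcs1, Idi1, Fdft1, Sqle, Lss and Npc1l1) were followed in H3K4me3 CUT&RUN tracks of mouse villus cells. They are 8 of the 21938 protein-coding genes of GENCODE M21 and were taken by name, with earlier results of these data known. Each was given 1 value per library, the mean H3K4me3 signal within 1000 bp on each side of the gene's 5′ end on mm10. CUT&RUN ties a nuclease to an antibody, so that DNA is released and sequenced where the antibody sits. H3K4me3, histone H3 trimethylated at lysine 4, marks the starts of genes in use. The libraries came from 2 wild-type mice and 2 ApcMin/+ mice on the C57BL/6J background, aged 5 weeks by the labels and 6 weeks by the study's methods. ApcMin/+ mice carry 1 mutant allele of the tumor suppressor Apc in every cell and develop intestinal tumors, but the cells here were scraped from small intestine that looked normal. All 4 libraries are therefore of scraped cell mixtures, 1 mouse each. Other marks, controls without antibody, RNA-seq and mice of 12 weeks were not analysed here.

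Cholesterol synthesis is governed by SREBP2, the protein that Srebf2 encodes. When sterols run low, SREBP2 leaves the endoplasmic reticulum, is cut, and switches on the enzymes of the pathway together with its own gene and Insig1, whose product holds SREBP2 back when sterols are plentiful. Enterocytes both make cholesterol and absorb it from the gut lumen, the latter through the transporter Npc1l1.

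The tracks differed in depth and in enrichment, and these differences run through every result. Depth was 1430000 tags for wild-type replicate 1, 4790000 for wild-type replicate 2, 3700000 for ApcMin/+ replicate 1 and 5470000 for ApcMin/+ replicate 2. ApcMin/+ replicate 1 stood apart: 41.0% of its signal lay in H3K4me3-enriched stretches, against 10.1% to 17.7% in the other 3 libraries, and its background was 0.207 against 0.307 to 0.329. An enriched stretch was a run of 100 bp bins, at least 300 bp long, in which the mean of the 4 libraries was at least 5 times the genome-wide mean. The villus enterocyte list (Vil1, Cdx1, Cdh1, Epcam, Fabp2, Alpi, Lct and Apoa4) had 8 of 8 promoters at a mean signal of at least 2, the minimum for testing. Its summed signal was 51.8 and 27.9 in wild-type and 138.0 and 33.7 in ApcMin/+ libraries. Only Mki67 of 4 crypt and stem markers reached that level, and 0 of 4 immune, 0 of 4 mesenchyme and muscle and 0 of 6 silent genes did. The summed signal of the crypt and stem list was 6.66 and 6.08 in wild-type against 19.8 and 10.3 in ApcMin/+ libraries, and that of the immune list 3.27 and 2.46 against 5.26 and 3.47. Those of the mesenchyme and of the silent list overlapped between the genotypes, at 0.349 to 3.07 and 1.6 to 5.59. Mki67 alone gave 4.88 and 4.23 of the crypt and stem sum in wild-type and 16.4 and 6.96 in ApcMin/+ libraries. The median tested promoter had 4.53 and 3.06 against 13.2 and 4.18. Both ApcMin/+ libraries were above both wild-type libraries in 38.5% of all tested promoters. No listed gene was at 0 in all 4 libraries. The part of other cell types and of enrichment in the results that follow was not tested. In such mixtures, fewer cells with a mark and less mark per cell cannot be told apart.

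The regulators are described first. Their upstream sequences, and those of Hmgcs1 and Npc1l1, are shown because these promoters span the range seen here, from a regulator of moderate signal to the highest of the 8. RefSeq promoters (GRCm38.p6, 250 bases before to 50 after the annotated start) were found for 6 of the 8 genes (all but Sqle and Fdft1). The bases printed run 5′ to 3′ on the gene's strand and end before the first annotated transcribed base, at chr15:82147019-82147180 (plus strand) for Srebf2, chr5:28071162-28071362 (plus) for Insig1, chr13:119690101-119690350 (plus) for Hmgcs1 and chr11:6230246-6230495 (minus) for Npc1l1. Capitals mark matches on either strand to a sterol regulatory element (TCACNCCAC), an E-box (CACGTG), an NF-Y box (CCAAT) or a GC box (GGGCGG), and no 2 of these matches overlap.
Srebf2: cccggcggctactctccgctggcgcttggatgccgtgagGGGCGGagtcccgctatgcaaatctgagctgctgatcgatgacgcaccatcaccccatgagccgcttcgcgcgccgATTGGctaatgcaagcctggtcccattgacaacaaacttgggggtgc
Insig1: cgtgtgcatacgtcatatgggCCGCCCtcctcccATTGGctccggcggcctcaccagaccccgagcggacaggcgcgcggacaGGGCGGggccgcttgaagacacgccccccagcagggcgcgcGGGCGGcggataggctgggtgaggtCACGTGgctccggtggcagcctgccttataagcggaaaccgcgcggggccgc
Hmgcs1: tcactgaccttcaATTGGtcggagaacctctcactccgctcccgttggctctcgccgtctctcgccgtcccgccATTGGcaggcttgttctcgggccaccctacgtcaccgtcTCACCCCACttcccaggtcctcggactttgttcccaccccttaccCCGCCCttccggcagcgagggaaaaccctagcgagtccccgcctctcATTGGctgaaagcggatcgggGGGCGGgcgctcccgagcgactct
Npc1l1: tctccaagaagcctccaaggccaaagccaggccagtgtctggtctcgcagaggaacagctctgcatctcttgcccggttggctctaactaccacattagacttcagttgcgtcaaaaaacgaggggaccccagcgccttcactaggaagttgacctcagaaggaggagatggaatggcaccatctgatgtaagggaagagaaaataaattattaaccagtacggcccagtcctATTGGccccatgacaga

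Each of the 6 promoters held an NF-Y box, a motif in 37.4% of the 32851 RefSeq promoters of this length. All but Npc1l1 held a GC box, which 35.7% of all promoters did. Hmgcs1 alone matched the sterol regulatory element in these letters, as TCACCCCAC 137 bases before the RefSeq start, and 1.24% of all promoters held such a match. Insig1 alone held an E-box, 101 bases before the start, against 7.15% of all promoters. Idi1 had NF-Y boxes 45 and 14 bases before the RefSeq start and Lss had one 62 bases before it. These matches are descriptions of the letters and say nothing of binding.

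Srebf2 (ENSMUSG00000022463.8, chr15:82147181-82205379, plus strand), the gene of the regulator itself, had a signal of 3.14 and 2.38 in wild-type replicates 1 and 2, and of 11.4 and 4.28 in ApcMin/+ replicates 1 and 2. Both ApcMin/+ libraries lay above both wild-type libraries, with ApcMin/+ replicate 1 far above the other. The means were 2.76 ± 0.535 and 7.82 ± 5.01 (SD, n = 2 each). Insig1 (ENSMUSG00000045294.11, chr5:28071363-28078662, plus), whose product retains SREBP2, had 3.92 and 3.03 in wild-type against 13.3 and 4.68 in ApcMin/+ libraries. Again the groups did not overlap. The depth behind these values was small in wild-type replicate 1, where Srebf2 rested on 9 fragments and Insig1 on 11. The 95% Poisson intervals of their signal in that library were 1.44 to 5.97 and 1.92 to 6.88, for counting error only, and they reach past the values of ApcMin/+ replicate 2. The 5′ end of the lincRNA Gm26608, on the opposite strand, lies 258 bp upstream of Insig1, so the signal there cannot be given to 1 of the 2 genes.

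Hmgcs1 and Idi1 belong to the mevalonate arm, which builds isoprenoid units. Hmgcs1 (ENSMUSG00000093930.2, chr13:119690379-119708260, plus) encodes the cytosolic HMG-CoA synthase, and its promoter had 9.77 and 5.11 in wild-type and 29.2 and 9.33 in ApcMin/+ libraries. Wild-type replicate 1 and ApcMin/+ replicate 2 overlapped here. Idi1 (ENSMUSG00000058258.14, chr13:8885501-8892451, plus), the isopentenyl diphosphate isomerase, had 5.23 and 4.17 against 19.8 and 5.72, without overlap. The TEC transcript Gm48574 starts on the opposite strand 322 bp downstream of the Idi1 5′ end.

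Fdft1, Sqle and Lss turn these units into the first sterol. Sqle (ENSMUSG00000022351.14, chr15:59315077-59331192, plus), the squalene epoxidase, had 5.12 and 3.25 in wild-type against 16.2 and 4.87 in ApcMin/+ libraries. Lss (ENSMUSG00000033105.12, chr10:76531588-76557138, plus), the lanosterol synthase that closes the ring system, had 5.93 and 2.26 against 13.1 and 4.22. In both genes ApcMin/+ replicate 2 fell below wild-type replicate 1. Fdft1 (ENSMUSG00000021273.10, chr14:63145150-63179578, minus), the squalene synthase, had almost none at its annotated gene end, at 0.349 and 0.344 against 0.695 and 0.57, which rested on 1 to 6 fragments per library, so it was not tested there.

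The Fdft1 signal lay instead 1785 bp downstream of that end, at the start of the transcript Fdft1-201. There it was 3.14 and 2.91 in wild-type and 15.6 and 4.0 in ApcMin/+ libraries, so the genotypes did not overlap. An enriched stretch of 1300 bp covered this start (chr14:63177201-63178500), and none lay within 1000 bp of the annotated gene end when all 4 libraries were averaged. Observed over expected CpG was 0.125 within 1000 bp of the gene end and 0.686 around the downstream start. The Srebf2 start with the highest mean signal lay 832 bp into the gene, with 3.08 and 2.58 against 17.1 and 5.12. It differed from the gene end mainly in ApcMin/+ replicate 1 (11.4 to 17.1), and wild-type replicate 1 was slightly lower there.

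Npc1l1 (ENSMUSG00000020447.5, chr11:6211013-6230143, minus), the transporter that takes up cholesterol from the lumen, had the highest mean signal of the 8, at 20.1. Its values were 17.8 and 8.27 in wild-type and 45.0 and 9.16 in ApcMin/+ libraries. Wild-type replicate 1 lay above ApcMin/+ replicate 2, so the groups overlapped. By mean signal it was number 14 of all 21938 promoters.

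**Figure D1:**
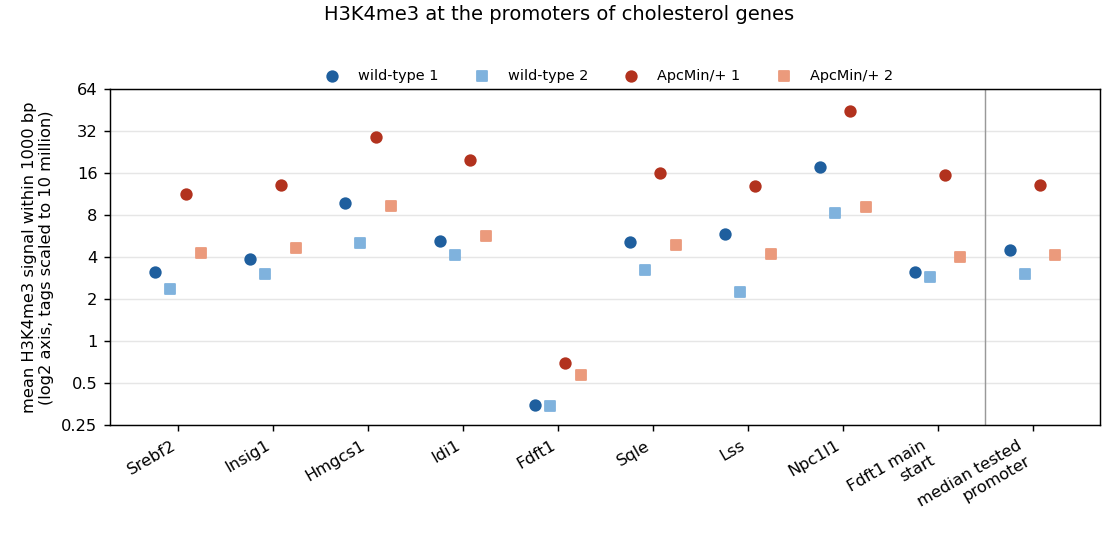
Mean H3K4me3 signal within 1000 bp of the 5′ end (log2 axis) for each member, for Fdft1 at its downstream start and for the median tested promoter. Each point is 1 library, with wild-type in blue and ApcMin/+ in red, and circles are replicate 1 and squares replicate 2. ApcMin/+ replicate 1 is the highest library at every gene drawn.

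The order of the members was similar from library to library. Npc1l1 came first in 3 libraries and Hmgcs1 in ApcMin/+ replicate 2, where the 2 differed by less than their counting error (9.16, interval 7.44 to 11.1, and 9.33, interval 7.6 to 11.3). Idi1 was above Sqle, Sqle above Insig1 and Insig1 above Srebf2 in each of the 4 libraries. The gaps between these neighbours were within the counting intervals, for example 13.4 to 19.4 for Sqle and 10.9 to 16.3 for Insig1 in ApcMin/+ replicate 1. Lss changed place most, from above Idi1 in wild-type replicate 1 to below Srebf2 in wild-type replicate 2, where it rested on 17 and 22 fragments. Over the 4 libraries, the means were 13.4 for Hmgcs1, 8.73 for Idi1, 7.36 for Sqle, 6.38 for Lss, 6.24 for Insig1 and 5.29 for Srebf2. Fdft1 was last at its gene end, at 0.49.

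The comparison of the genotypes asked whether these promoters carried more H3K4me3 in ApcMin/+ cells that still looked normal. At the tracks' own scale, all 8 members had a higher mean in ApcMin/+ libraries, with a median log2 difference of 1.0 on the log2(signal + 1) scale, as had most promoters. The median of the 9931 tested promoters (mean signal of at least 2) was 0.85, and 9850 of them were above 0. None of the 7 members tested passed an adjusted p of 0.05 in limma with Benjamini-Hochberg adjustment, and 0.0% of all tested promoters did (0 of 9931, with 131 at an unadjusted p under 0.05). The differences were 1.11 ± 0.93 (SE) for Srebf2, 1.02 ± 1.02 for Insig1, 1.12 ± 1.26 for Hmgcs1 and 1.06 ± 1.17 for Idi1, each with an adjusted p of 0.683. They were 0.98 ± 1.09 for Sqle, 0.85 ± 1.02 for Lss and 0.71 ± 1.21 for Npc1l1, with adjusted p of 0.683, 0.683 and 0.684. For a single gene, the two-sided exact permutation test over 2 against 2 libraries gave p = 0.333 where the groups did not overlap, which is the smallest it allows. Both ApcMin/+ libraries were above both wild-type libraries in 3 of the 7 tested members, Srebf2, Insig1 and Idi1, close to the 38.5% of all tested promoters. With Fdft1 at its gene end, on 1 to 6 fragments per library, this made 4 of 8. The share over all 21938 promoters was 26.0%. That share includes the promoters under the level for testing, while 7 of the 8 members were tested, so the 2 are not like for like. No member had both ApcMin/+ libraries below, against 0.161% of tested promoters. At the transcript start with the highest signal, the count was also 4 of 8 (Srebf2, Insig1, Idi1 and Fdft1) beside 38.0% of promoters.

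A single library decided these calls. With ApcMin/+ replicate 2 left out, so that replicate 1 was taken to vary as the wild-type libraries do, 5 members passed (Srebf2, Insig1, Idi1, Sqle and Lss, adjusted p 0.00362 to 0.0241 in limma), but so did 65.2% of all tested promoters with a higher signal. With ApcMin/+ replicate 1 left out instead, no member passed, the members' median was 0.233 and Npc1l1 turned to -0.379.

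Each library was therefore also centred on its median tested promoter, which moved the median difference of the tested promoters from 0.846 to -0.0082. Centring takes out any shift shared by most promoters, whatever its source, so a gain at all promoters cannot be seen afterwards. The study reported increased H3K4me3 at promoter regions in ApcMin/+ mice. After centring, the members lay near the median promoter. The differences relative to it were 0.27 ± 0.32 (SE) for Hmgcs1, 0.26 ± 0.32 for Srebf2, 0.2 ± 0.28 for Idi1, 0.16 ± 0.29 for Insig1 and 0.12 ± 0.28 for Sqle. Lss was at -0.0017 ± 0.29 and Npc1l1 at -0.14 ± 0.42, the opposite sign to the tracks' own scale. Every one of them had an adjusted p of 0.999 in limma, while 0.121% of all tested promoters passed (12 of 9931). Both ApcMin/+ libraries were above both wild-type libraries in 5 of the 7 tested members (Srebf2, Insig1, Hmgcs1, Idi1 and Sqle), and in 13.1% of all tested promoters. These 5 differences were smaller than their SE, and the members' median was 0.14 against -0.0082 for all tested promoters. The choice of members was made with earlier results of these data known. At its downstream start, Fdft1 differed by 0.29 ± 0.31 after centring, and at its gene end by -0.58, where the signal was near background and centring alone sets the sign.

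**Figure D2:**
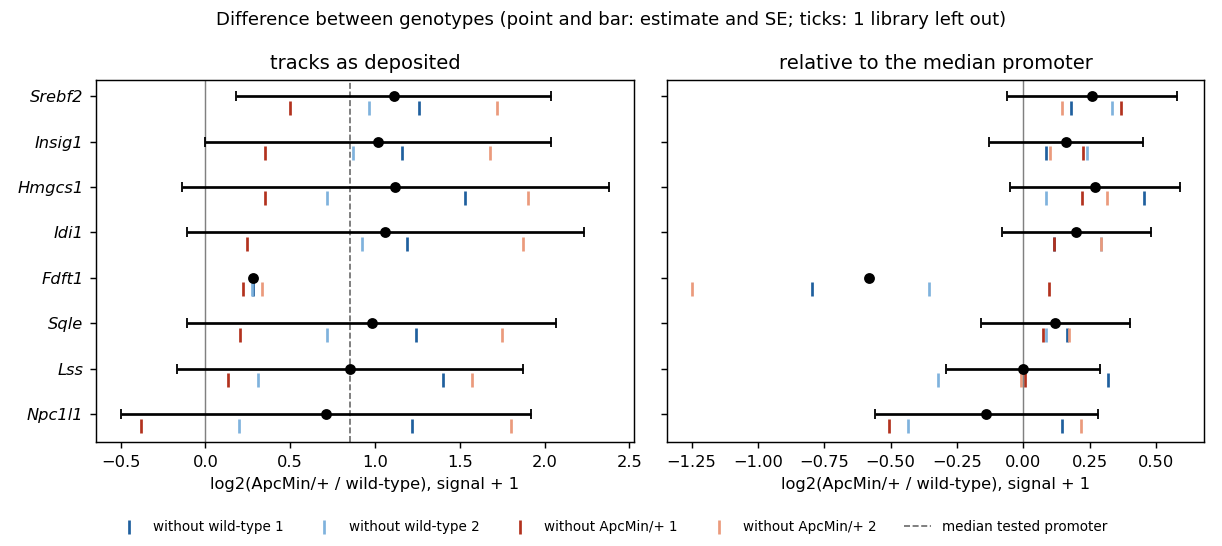
Log2 difference between ApcMin/+ and wild-type libraries in signal + 1 for each member, with the tracks as deposited on the left and after centring each library on its median promoter on the right. Points are estimates and bars their SE (none for Fdft1, which was not tested at its gene end), and coloured ticks give the value with 1 library left out. On the left the members scatter around the dashed median of all tested promoters at 0.85, and on the right 5 of them lie between 0.12 and 0.27.

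The members also differed in the shape of their signal. At Idi1, 92.1% to 100.0% of the signal of the window lay downstream of the 5′ end, with the highest 50 bp bin 150 to 249 bp into the gene. At Hmgcs1 60.9% to 78.5% did, close to the medians of 65.7% to 69.5% over tested promoters. Insig1 was spread to both sides, with 44.5% to 59.6% downstream. For Idi1, the share was counted from the annotated gene end, and further protein-coding starts of the gene lie 442 to 493 bp downstream. Gm48574 starts within the same window, at 322 bp on the opposite strand. The Idi1 share therefore depends on the start chosen and cannot be given to Idi1 alone.

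This share does not depend on the scale of a library, and it was compared between genotypes after its values had been seen. At Lss, 30.2% and 43.7% of the signal lay downstream in wild-type libraries and 63.3% and 58.1% in ApcMin/+ libraries. The groups did not overlap, but the 95% Wilson intervals did (13.3% to 53.1% in wild-type replicate 1 and 44.3% to 71.7% in ApcMin/+ replicate 2). Srebf2 had 45.5% and 47.0% against 65.7% and 55.1%, and Sqle 58.0% and 40.0% against 63.9% and 63.9%. In ApcMin/+ replicate 1, Srebf2 reached its highest bin 1500 bp into the gene, and in the other 3 libraries within 150 bp upstream of the 5′ end. Npc1l1 went the other way, with 67.5% and 63.1% against 50% and 59.2%, and Idi1 did by a margin of under 1 fragment (92.5% in wild-type replicate 2 and 92.4% in ApcMin/+ replicate 2). So 3 of the 7 tested members had a higher downstream share in both ApcMin/+ libraries, beside 15.0% of tested promoters, and 2 a lower one, beside 13.8%. Groups of 2 and 2 libraries without overlap always give p = 0.333 in the exact permutation test, so it cannot decide for these genes.

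**Figure D3:**
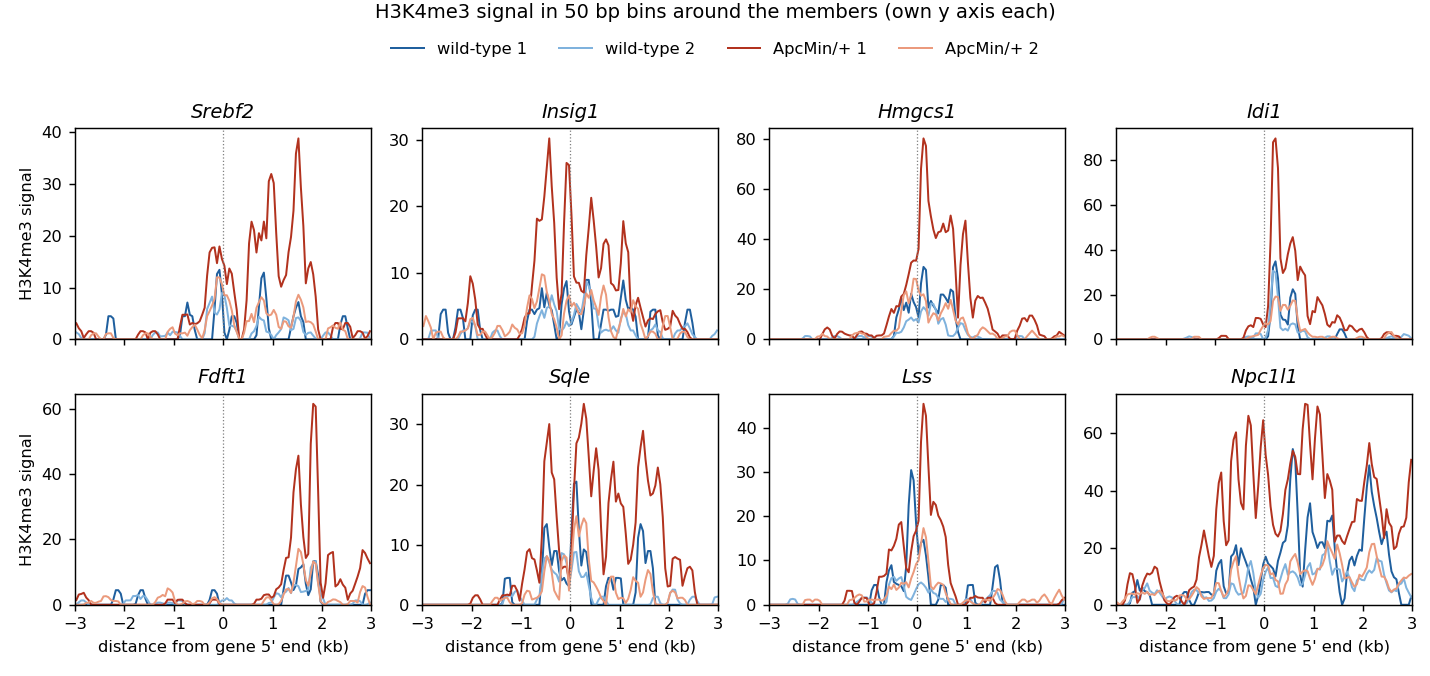
H3K4me3 signal in 50 bp bins from 3000 bp upstream to 3000 bp downstream of each member's 5′ end, in the direction of transcription, 1 line per library and 1 y axis per gene. Idi1 has nearly all of its signal inside the gene, with the highest bin 150 to 249 bp from the 5′ end, Fdft1 none at its annotated end and a summit 1500 to 1899 bp downstream, and Npc1l1 signal over the whole downstream side.

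Npc1l1 differed from the other members in breadth. Its enriched stretch ran for 7500 bp (chr11:6224301-6231800), reaching 5842 bp into the gene. Only 12 of the 9931 tested promoters, Npc1l1 included, had a stretch at least as long (0.121%), and none of these 12 stretches held the 5′ end of another protein-coding gene. The median over tested promoters was 1600 bp, with quartiles of 1200 and 2100 bp. Vil1, a gene of the enterocyte list that builds the microvillus, was another of the 12, at 7600 bp. In wild-type replicate 2 and ApcMin/+ replicate 2, the signal held at 11.6 and 13.2 from 1000 to 1999 bp and was 4.54 and 6.11 from 4000 to 4999 bp. Wild-type replicate 1 had 17.3 and ApcMin/+ replicate 1 37.3 in the first of these steps. From 7000 to 7999 bp, all 4 libraries were at or below 1.24. The length was 7300 to 7500 bp with any 1 library left out, so it did not rest on ApcMin/+ replicate 1.

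The Npc1l1 window was poor in CpG. Observed over expected CpG was 0.196, and 1.71% of tested promoters had a lower value, with a median of 0.64. The median of the promoters not tested was 0.236. The other tested members lay between 0.545 for Lss and 0.82 for Sqle.

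The other stretches were 3200 bp at Sqle (7.29% of tested promoters had one as long), 2300 bp at Srebf2 and at Insig1, 2100 bp at Hmgcs1, 1900 bp at Idi1 and 1600 bp at Lss. Several depended on ApcMin/+ replicate 1. Without it, the Sqle stretch was 1000 bp, that of Srebf2 700 bp, that of Idi1 1000 bp and that of Fdft1 at its downstream start 800 bp. The Fdft1 stretch also moved with the wild-type libraries, to 2400 bp without replicate 1, when it came within 1000 bp of the annotated gene end, and to 2200 bp without replicate 2. Insig1 kept 2200 bp and Lss 1500 bp.

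**Figure D4:**
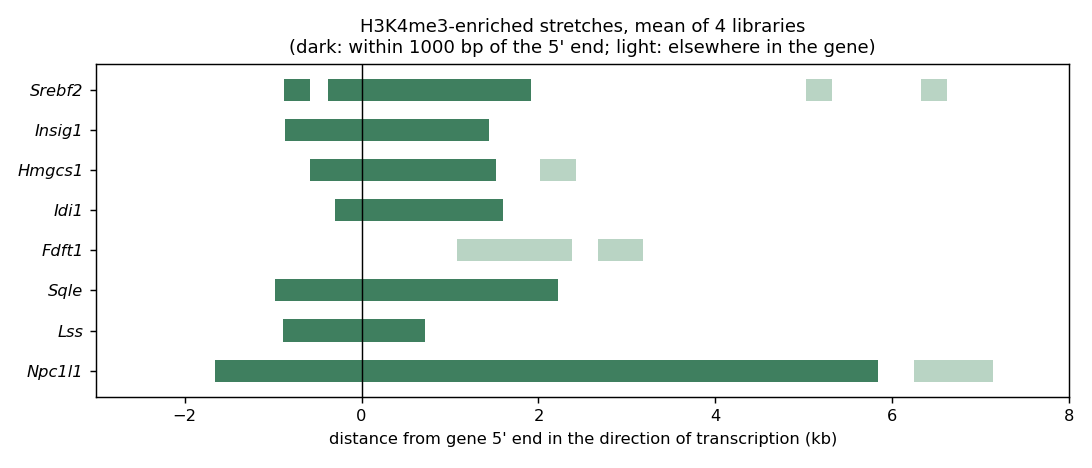
H3K4me3-enriched stretches in the mean of the 4 libraries, drawn to scale by distance from each member's 5′ end in kb. Dark bars lie within 1000 bp of the 5′ end and light bars elsewhere in the gene. The Npc1l1 bar of 7500 bp is the longest, the next being 3200 bp at Sqle, and Fdft1 has a bar only downstream of its annotated end.

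The rest of the pathway was read from a list of 28 other genes, of which 23 were tested. None passed in limma at the tracks' own scale (adjusted p 0.683 to 0.7) or after centring. Without ApcMin/+ replicate 2, 18 of the 23 passed, in the setting in which 65.2% of all tested promoters did. Relative to the median promoter, 10 of the 14 tested synthesis enzymes were above 0. So were 1 of 5 regulators and 2 of 4 genes of uptake, esterification and export. Of all 9931 tested promoters, 4845 were above 0. Signal also differed between these groups, with medians of 7.48, 2.75 and 5.2 in this order, untested genes included. Its part in these counts was not tested. Both ApcMin/+ libraries were above both wild-type libraries after centring in 5 of the 23 (13.1% of all tested promoters) and below them in 1 (14.3%). Tm7sf2, one of the 5, had a wild-type mean of 1.94, and so reached the mean of 2 needed for testing through the ApcMin/+ libraries, as did Mbtps2, the regulator above 0, and Srebf1 (wild-type means 1.39 and 1.97).

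Mvd, the mevalonate diphosphate decarboxylase, was among these 5, with 5.19 and 2.7 in wild-type and 19.1 and 6.41 in ApcMin/+ libraries and 0.5 relative to the median promoter. In the other direction, Insig2, the second sterol-sensing retention protein, and Abcg8, a subunit of the sterol exporter, were both under the level for testing. Insig2 had 0.698 and 0.627 against 0.35 and 0.34, and Abcg8 1.74 and 1.48 against 2.31 and 0.708. This is -0.31 and -0.13 on the log2 scale before centring, where the groups overlapped at Abcg8. The annotated 5′ end of Abcg8 (chr17:84676302, plus strand) lies inside Abcg5 (chr17:84658234-84683011, minus). Signal at other Abcg8 starts is not given here, so its values stand for that 5′ end only. Abca1, which loads cholesterol onto HDL, is named after its values were seen. It was the tested gene of the list with both ApcMin/+ libraries below after centring, at 2.56 and 1.57 against 5.69 and 1.23, and -0.5. At the tracks' own scale the Abca1 difference was 0.36 and the groups overlapped, so its sign turned with centring.

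The highest promoter of the list was Abcg5, the partner of Abcg8, with 23.2 and 7.77 in wild-type and 41.1 and 10.3 in ApcMin/+ libraries and a mean of 20.6, next to 20.1 for Npc1l1. Its enriched stretch was 6000 bp long. The Abcg5 5′ end (chr17:84683011) lies inside the annotated span of Abcg8 (chr17:84676302-84700333, plus strand). The signal and the stretch there can therefore not be given to Abcg5 alone. Soat2, which esterifies absorbed cholesterol, had 10.5 and 3.55 against 22.7 and 8.38. At Abcg5 and at Soat2 wild-type replicate 1 lay above ApcMin/+ replicate 2, as it did at Npc1l1.

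**Figure D5:**
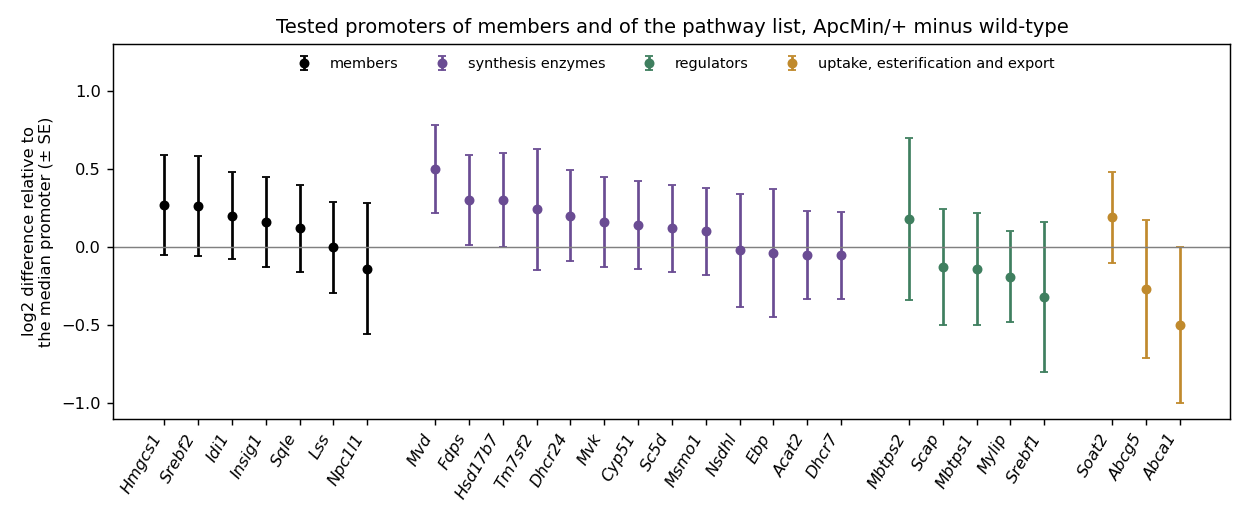
Log2 difference between ApcMin/+ and wild-type libraries relative to the median promoter, with its SE, for the 7 tested members and 21 of the 23 tested genes of the pathway list, grouped by role. Values run from 0.5 at Mvd to -0.5 at Abca1, and no gene drawn passed the test.

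The promoters whose levels over the 4 libraries were nearest to the mean of the members (2.56, 2.02, 3.87 and 2.49 in log2(signal + 1)) were Dennd6b, Fam234b and Hdhd2, at Euclidean distances of 0.0508, 0.0556 and 0.0686. Within a distance of 0.3 lay 303 of the 21930 other promoters, so the pattern was a common one.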

How the data were processed

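H3K4me3 CUT&RUN tracks of 2 wild-type and 2 ApcMin/+ mice were used, grouped by sample title. The authors mapped trimmed pairs with Bowtie2 (mm10), dropped duplicates with Picard and alignments of MAPQ under 10, kept fragments of 150 to 500 bp and wrote tracks with HOMER. The deposited values are signal, that is coverage per base normalized to a depth of 10000000 tags and to a fragment length of 100 bp, with no control subtracted and no replicates pooled. Being coverage and not counts, they were given to no count model. Fragments at a promoter were obtained from the summed signal divided by the signal per tag.

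The signal was averaged over 1000 bp on each side of the 5′ ends of 21938 protein-coding genes (GENCODE M21, 21 chromosomes). Promoters with a mean of at least 2 were tested on log2(signal + 1) with limma 3.58.1 (eBayes with a trend, R 4.3.3) and Benjamini-Hochberg adjustment over all 9931 and a threshold of 0.05. The test was tested on simulated data. With a library raised as a whole, recovery of changed promoters was required there only after centring. The simulation therefore does not say how many changes the test misses at the tracks' own scale. The replicates are separate mice, and p-values measure the spread between 2 of each. Background was the mean of 1000 bp bins over 5000 bp from any protein-coding 5′ end and below 5 times the genome-wide mean. Intervals (95%, Poisson for signal, Wilson for shares) cover counting error only, and PCR copies can widen the true error. The remaining steps ran in Python 3.11.15 with pandas 2.3.3, numpy 2.4.6, scipy 1.17.1 and pysam 0.24.0.

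The members, the pathway list and the marker lists were chosen with earlier results of these data known. Genes named besides the members were the 3 of the pathway list with the highest mean signal, up to 2 in each direction with the largest difference relative to the median promoter without overlap, and the 3 promoters nearest to the members' mean. Some genes that this rule names are not reported here, and Abca1 was named after its values were seen. Alternatives were the scaling, the window (500 and 2000 bp), the transcript start, the filter (none and 5), the pseudocount (0.1 and 5), a replicate block and each library left out. Centring or leaving out a library at the start with the highest signal, the stretches with a library left out and the downstream share were added after the data had been seen.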

Additional observations from a re-analysis of the deposited data

How the results depend on the processing

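Leaving out 1 library in turn, the calls over all promoters ran from 0 to 6478, those among members from 0 to 5 and in the pathway list from 0 to 18, and all calls above 0 came without ApcMin/+ replicate 2. The members' median ran from 0.233 to 1.74, and members without overlap from 4 to 8 (8 without wild-type replicate 1 and without ApcMin/+ replicate 2). With 1 library left out, 2 libraries are set against 1, so absence of overlap is easier to reach. The share of all promoters without overlap is not given for these settings, at either kind of start. The counts of members without overlap therefore do not set the members apart from other promoters. At the transcript start with the highest signal, the same ranges were 0 to 7118, 0 to 6, 0 to 21, 0.292 to 1.87 and 4 to 8. After centring they were 0 to 30 calls over all promoters and 0.0836 to 0.157 for the median (0.154 without wild-type replicate 1, 0.106 without ApcMin/+ replicate 1). Npc1l1 ran from -0.379 without ApcMin/+ replicate 1 to 1.8 without ApcMin/+ replicate 2 at both kinds of start.

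With all libraries, centring gave 12 calls over all promoters and a members' median of 0.143, quantile normalization 2 calls and 0.136, and centring at the start with the highest signal 13 calls and 0.194. The signs of some members turned: with centring, Fdft1 was -0.577, Lss -0.00174 and Npc1l1 -0.144, with quantile normalization Fdft1 was -0.297 and Npc1l1 -0.149, with a window of 500 bp Fdft1 was -0.183, and with centring at the highest start Lss was -0.0543 and Npc1l1 -0.178. With centring and 1 library left out, Fdft1 ran from -1.25 to -0.356 where negative (-0.798 without wild-type replicate 1), Lss was -0.323 without wild-type replicate 2 and -0.0105 without ApcMin/+ replicate 2, and Npc1l1 was -0.433 without wild-type replicate 2 and -0.506 without ApcMin/+ replicate 1. The cause was not tested.

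Replicate numbers are shared by the genotypes, but nothing says that they pair the mice, and same-numbered libraries deviated together with a correlation of 0.196 over 9931 promoters, from 2 pairs. A replicate block gave 1 call over all promoters at the tracks' own scale and 15 after centring, where the members' median was 0.143, Fdft1 -0.577, Lss -0.00174 and Npc1l1 -0.144. No member was called with the block.

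No member was called in any other setting with all 4 libraries: scaling to background (median 1.29) or to the listed library totals (1.44), windows, filters and pseudocounts. Counting error was largest in wild-type replicate 1, where a median tested promoter held 13.0 fragments, against 29.3 to 97.6 in the other libraries.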
